A study of Mus musculus with 2 samples.

Results

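The microRNAs (miRNAs) described here are the miR-101 and miR-7 families, 4 mature mouse miRNAs chosen by name: mmu-miR-101a-3p, mmu-miR-101b-3p, mmu-miR-7a-5p and mmu-miR-7b-5p, written below without the species prefix. They are among 1247 mouse miRNAs with probes on the arrays. The rule that picked them used no measured level, but they were chosen with earlier results of these data known. The levels come from 2 single-colour Agilent miRNA arrays of knee articular cartilage from male mice 8 weeks old. The Col2a1Tsc1KO array held RNA of mice with, per the series' design text, a Tsc1 deletion specific to Col2a1, a collagen gene active mainly in chondrocytes, the cells of cartilage. The control array held RNA of mice labelled wildtype, and the sources used here do not give their alleles in more detail, the mouse line used for the deletion, or how many mice each sample held. Each group had 1 array, so no difference below has a replicate check or a p-value. The errors are standard errors (SE) over replicate spots of a probe on 1 array. They cover the technical spread between spots alone, not that between probes, ways of scaling or mice. The arrays shared 1 slide, on which each group had its own position, and position and group cannot be told apart. No probe measured the Tsc1 mRNA, so its loss could not be checked on these arrays.

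Tsc1 and its partner Tsc2 hold back the small GTPase Rheb, which switches on mTORC1, the kinase complex that drives protein synthesis and cell growth. A miRNA guides an Argonaute protein to mRNAs that pair with its seed, bases 2 to 8 from its 5′ end, and lowers the output of those mRNAs. miR-101 is best known for repressing the histone methyltransferase Ezh2 and has been reported to repress Mtor itself. miR-7 is abundant in brain and in pancreatic islets, and has been reported to repress growth factor receptors, PI3K subunits, Mtor and S6 kinase. The arrays measured the miRNAs alone, not these targets.

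The mature sequences, from RefSeq on the mouse build GRCm38.p6, are shown because the 2 members of each family are near-identical: they differ by 1 base where they align, and in length. Seeds are in capitals.
miR-101a-3p: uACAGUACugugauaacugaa
miR-101b-3p: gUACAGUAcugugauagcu
miR-7a-5p: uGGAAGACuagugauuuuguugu
miR-7b-5p: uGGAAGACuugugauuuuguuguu
miR-7a-5p and miR-7b-5p share the seed GGAAGAC, which no other of the 1679 mature mouse miRNA sequences searched had at bases 2 to 8. Over 23 aligned bases they were identical at 22, the exception being A10U, counted from the 5′ end of miR-7a-5p. miR-101b-3p begins with an extra 5′ base in RefSeq, so its seed is that of miR-101a-3p moved by 1 base. Over the 18 bases that align, miR-101a-3p and miR-101b-3p were identical at 17, with A16G counted from the 5′ end of miR-101a-3p. Neither miR-101 seed was shared at bases 2 to 8 with another mature mouse miRNA.

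The members come from 5 places in the genome. The miR-101a-3p sequence lies at chr4:101346957-101346977 on the minus strand, in Mir101a, within the span of the gene E130102H24Rik. The miR-101b-3p sequence lies at chr19:29135338-29135356 on the plus strand, in Mir101b, within the span of the protein-coding gene Rcl1. miR-7a-5p is made from both Mir7-1, at chr13:58392841-58392863 on the minus strand within the span of Hnrnpk, and Mir7-2, at chr7:78888295-78888317 on the plus strand, outside the span of any other annotated gene. Whether these positions are exonic or intronic in the host genes was not analysed here. The product of these genes is the same, so the arrays could not tell them apart. miR-7b-5p lies at chr17:56243017-56243040 on the plus strand, in Mir7b, outside any other gene span and 13753 bp from the nearest protein-coding gene, Fem1a. No other miRNA gene was annotated within 10 kb of any of these loci, so none of the members belongs to a miRNA cluster by that distance.

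The probes pair with all or most of each miRNA, and the base opposite the position where the family members differ is in capitals. They are shown because the probes shown for a family differ by that single base, and for miR-101 also in length.
miR-101a-3p, 21 nt probe: ttcagTtatcacagtactgta
miR-101b-3p, 18 nt probe: ttcagCtatcacagtact
miR-7a-5p, 22 nt probe: acaacaaaatcacTagtcttcc
miR-7b-5p, 22 nt probe: acaacaaaatcacAagtcttcc
Each member had 2 probes of different length with 20 spots apiece on each array, and the miR-101b-3p probes reached 3 bases past the 3′ end of the RefSeq sequence. Apart from the base in capitals, the miR-101b-3p probe shown matches miR-101a-3p along its full length, those 3 bases included. The miR-7a-5p and miR-7b-5p probes shown likewise match the other family member apart from that base. How much signal the other member gives on a probe was not tested. One further miRNA on the arrays cannot be separated from a member at all: the whole of miR-101c (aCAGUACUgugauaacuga, seed in capitals, chr9:3038680-3038698 on the minus strand, not a member) lies within bases 2 to 20 of miR-101a-3p. Both of its probes match miR-101a-3p along their full length.

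Intensities are background-subtracted spot signals in arbitrary units. A probe was taken as measured where more than 50% of its usable spots on an array were marked well above background by the scanner software. Both arrays measured 257 miRNAs, with 296 well above background on the Col2a1Tsc1KO array and 281 on the control array, and no miRNA spot was saturated. The 75th percentile of the intensities of probes measured on both arrays was 470.0 on the Col2a1Tsc1KO array and 353.6 on the control array. Scaled log2 levels are relative to that percentile, so 0 is the percentile itself and a difference is Col2a1Tsc1KO minus control. A difference of 2-fold or more in favour of the Col2a1Tsc1KO array was found for 40 of the 257 miRNAs (15.6%), and of 2-fold or more against it for 45 (17.5%). The median difference over all 257 was -0.22. This balance depended on the scaling: 60 were higher and 13 lower by that fold with the 75th percentile of every probe, 59 and 13 with no scaling, and 55 and 14 with the spike-ins.

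The members differed between the arrays in unlike ways. On the scaled log2 scale, miR-101a-3p was higher on the Col2a1Tsc1KO array, with a difference of 1.0 ± 0.02 (SE over spots). miR-7a-5p was lower on it, with a difference of -0.87 ± 0.04, and miR-101b-3p had a difference of 0.03 ± 0.05. miR-7b-5p was not well above background on either array. Thus 1 of the 3 measured members reached 2-fold in the upward direction, where 15.6% of all measured miRNAs did, and 0 of 3 in the downward direction, where 17.5% did. The one that did, miR-101a-3p, lay at the threshold itself, as the last of the 40 in rank.

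**Figure D1:**
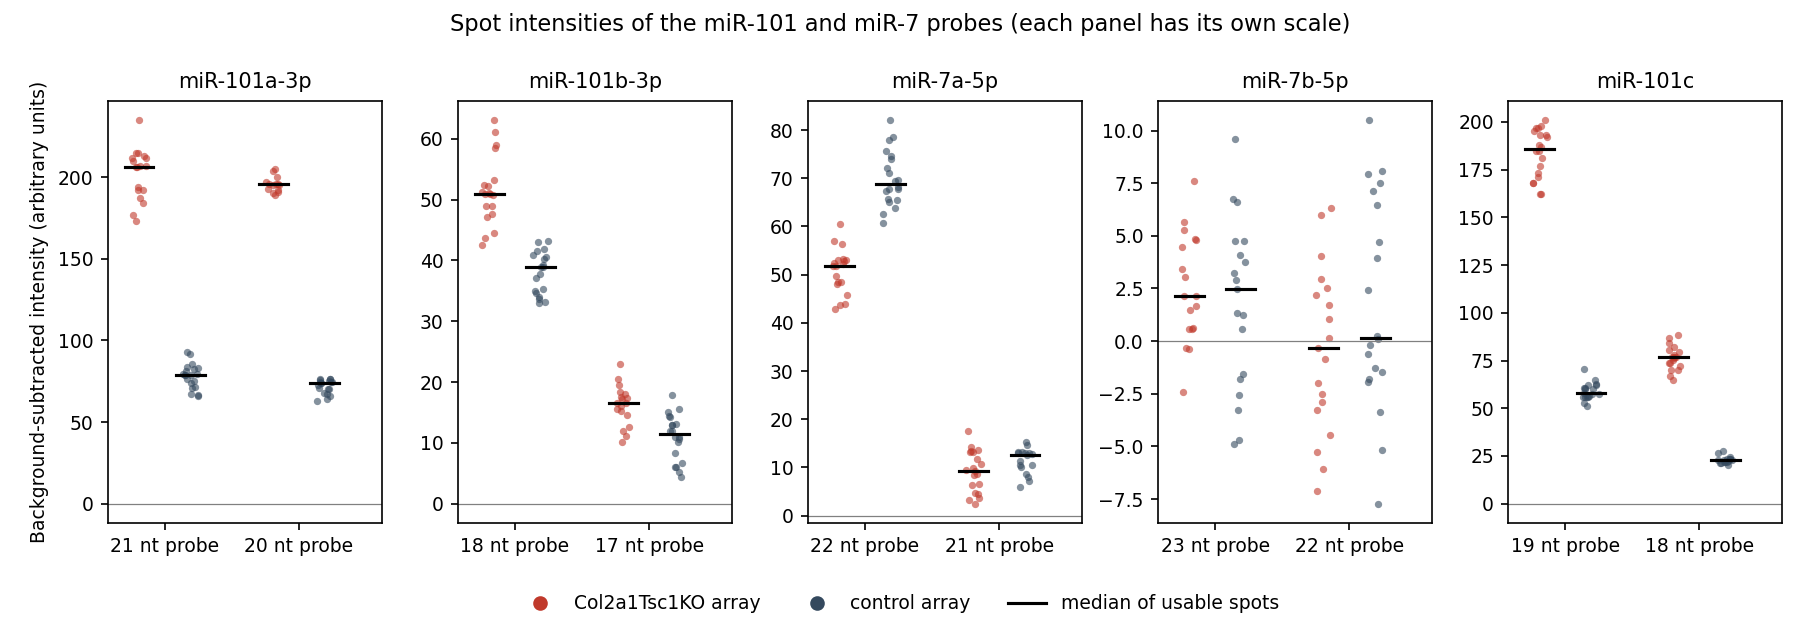
Each panel plots the usable spots of the 2 probes of a miRNA as background-subtracted intensity in arbitrary units, with Col2a1Tsc1KO spots left of control spots, a bar at the median and no scaling between arrays. All miR-101a-3p and miR-101c spots of the Col2a1Tsc1KO array lie above those of the control array, the 22 nt miR-7a-5p probe lies below, and miR-7b-5p scatters around 0 on both.

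miR-101a-3p had spots of 173, 206.5 and 235 (lowest, median and highest of 18 usable spots) on the Col2a1Tsc1KO array with its 21 nt probe, against 66.2, 79.05 and 92.9 over 20 spots on the control array. Its 20 nt probe gave 189, 195.5 and 205 over 14 usable spots on the Col2a1Tsc1KO array, and 63.1, 73.9 and 76.2 over 19 spots on the control array. The spots of the arrays did not overlap for either probe. After scaling, the level was -1.24 on the Col2a1Tsc1KO array and -2.24 on the control array, a 2.00-fold difference that ranked 40th of 257 from the top. The probes gave differences of 0.96 ± 0.04 (21 nt) and 1.04 ± 0.02 (20 nt), so they fell on opposite sides of 2-fold. The scanner software marked 6 of the 20 spots of the 20 nt probe on the Col2a1Tsc1KO array as outliers, and with such spots kept the miRNA's difference was 0.98. Taking only the 21 nt probe gave 0.96, the median of the spots 0.99, and normexp background correction with quantile normalization 0.75. In all, miR-101a-3p was under 2-fold in 5 of the 15 processing alternatives and at or over it in 10, where it reached 1.49. Its sign was positive in all 15.

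The probes of miR-101c, which read the same sequence, showed the same direction. The 19 nt probe had 162, 186 and 201 over 20 spots on the Col2a1Tsc1KO array, against 51.2, 57.8 and 70.5 over 19 spots on the control array. The scaled difference of miR-101c was 1.27 ± 0.03, or 2.42-fold, and exceeded that of miR-101a-3p by 0.27 ± 0.03. Since miR-101a-3p matches these probes in full, the signals of miR-101c and miR-101a-3p cannot be told apart.

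miR-101b-3p had spots of 42.6, 51 and 63.1 over 19 usable spots on the Col2a1Tsc1KO array and 33, 39 and 43.2 over 19 spots on the control array, read with its 18 nt probe. Before scaling, the Col2a1Tsc1KO spots were the higher and the ranges met only at their edges. As a percent of each array's 75th percentile, the spots ran from 9.06% to 13.4% on the Col2a1Tsc1KO array and from 9.33% to 12.2% on the control array, and 13 of the 19 Col2a1Tsc1KO spots lay within the control range. The scaled levels were -3.20 on the Col2a1Tsc1KO array and -3.22 on the control array. Their difference of 0.03 ± 0.05 was smaller than its own error and ranked 103rd of 257. The 17 nt probe of miR-101b-3p was dim, with 2 of 18 Col2a1Tsc1KO spots and 0 of 20 control spots well above background, and was not used.

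The sign for miR-101b-3p depended on the processing: it was negative under 4 of the 15 alternatives and positive under 11, from -1.39 to 0.63. The lowest value came from the scanner software's total signal per miRNA. On the control array that total was 73.4 for miR-101b-3p, of which the miRNA's own probes gave 14.8 and the remaining 58.6 equalled the total of miR-101a-3p. On the Col2a1Tsc1KO array the total of 26.7 was the sum of its own probes alone. The log2 ratio of Col2a1Tsc1KO to control was therefore -1.46 with the software's totals and 0.85 with the miRNA's own detected probes, before any scaling. The sums of own probes hold those detected on each array, which need not be the same probes. With the 18 nt probe alone on both arrays, the difference before scaling was 0.44.

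The differences read by the miR-101a-3p and miR-101b-3p probes thus lay apart by more than their spot errors. How much miR-101a-3p adds to the signal of the miR-101b-3p probe was not tested. The scaled difference of miR-101a-3p exceeded that of miR-101b-3p by 0.98 ± 0.05, a comparison in which a constant scaling of an array cancels. The gap was positive under all 15 alternatives but ranged from 0.53 in the deposited table to 2.88 with the software's totals. It was 0.65 with normexp and quantile normalization. With those totals freed of other miRNAs' signal it was 0.57, from sums that need not hold the same probes on both arrays. miR-144-3p (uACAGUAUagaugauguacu, chr11:78073047-78073066 on the plus strand), a red cell miRNA that shares its first 7 bases with miR-101a-3p, had a difference of 1.51 ± 0.04. That was 0.51 ± 0.04 above the miR-101a-3p difference.

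miR-7a-5p had spots of 42.9, 51.8 and 60.6 over 19 usable spots on the Col2a1Tsc1KO array, against 60.7, 68.8 and 82.1 over 20 spots on the control array, read with its 22 nt probe. Every Col2a1Tsc1KO spot lay below every control spot, before and after scaling. The scaled level was -3.22 on the Col2a1Tsc1KO array and -2.34 on the control array, a difference of -0.87 ± 0.04, so that the level was 1.83-fold lower on the Col2a1Tsc1KO array. It ranked 200th of 257 from the top, below the median of all miRNAs but among the 172 that stayed within 2-fold. Before scaling the difference was -0.46, and all 15 alternatives gave a negative sign, from -0.88 to -0.13. The 21 nt probe had 0 spots well above background on either array. Its spots were 2.47, 9.285 and 17.6 on the Col2a1Tsc1KO array and 5.99, 12.5 and 15.2 on the control array, which overlap, and its difference of -0.85 ± 0.20 did not enter the value.

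The value of -0.13 came again from the software's totals. For miR-7a-5p these were 62.8 on the Col2a1Tsc1KO array and 72.4 on the control array, but its own probes gave only 20.1 and 27.3 of them. The remainder equalled the total of miR-762 on the Col2a1Tsc1KO array and of miR-760-3p on the control array.

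miR-7b-5p gave no level on either array. Its 22 nt probe had a lowest, median and highest spot of -7.1, -0.344 and 6.31 on the Col2a1Tsc1KO array and of -7.72, 0.172 and 10.5 on the control array. The 23 nt probe had -2.43, 2.145 and 7.62 on the Col2a1Tsc1KO array and -4.87, 2.48 and 9.6 on the control array. No spot of either probe was well above background, and all 4 medians lay under the median of the negative control spots, which was 4.89 on the Col2a1Tsc1KO array and 4.96 on the control array. No fold was therefore computed for miR-7b-5p, and a difference would not have been detectable at these signals.

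The opposite strands of the hairpins were near background as well. None of miR-101a-5p, miR-101b-5p, miR-7a-1-3p, miR-7a-2-3p and miR-7b-3p met the rule for a measured probe on either array. These arms are among 927 of all 1247 miRNAs with probes for which that was so. miR-7b-3p came nearest: its 14 nt probe had a median of 10.8 with 0 of 19 spots well above background on the Col2a1Tsc1KO array, and a median of 18.95 with 4 of 20 on the control array. Its 15 nt probe had a median of 10.85 with 1 of 20 on the Col2a1Tsc1KO array and 15.9 with 3 of 20 on the control array.

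Between the families, the miR-7 difference minus the miR-101 difference was -1.39 ± 0.05, with miR-7a-5p standing for miR-7 and the mean of miR-101a-3p and miR-101b-3p for miR-101. A constant scaling of an array cancels in this contrast, which kept its sign under all 15 alternatives, from -1.58 to -0.19. By member, the difference of miR-7a-5p minus that of miR-101a-3p was -1.87 ± 0.05, and minus that of miR-101b-3p it was -0.90 ± 0.06. The plot of every measured miRNA by level places the members against the rest.

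**Figure D2:**
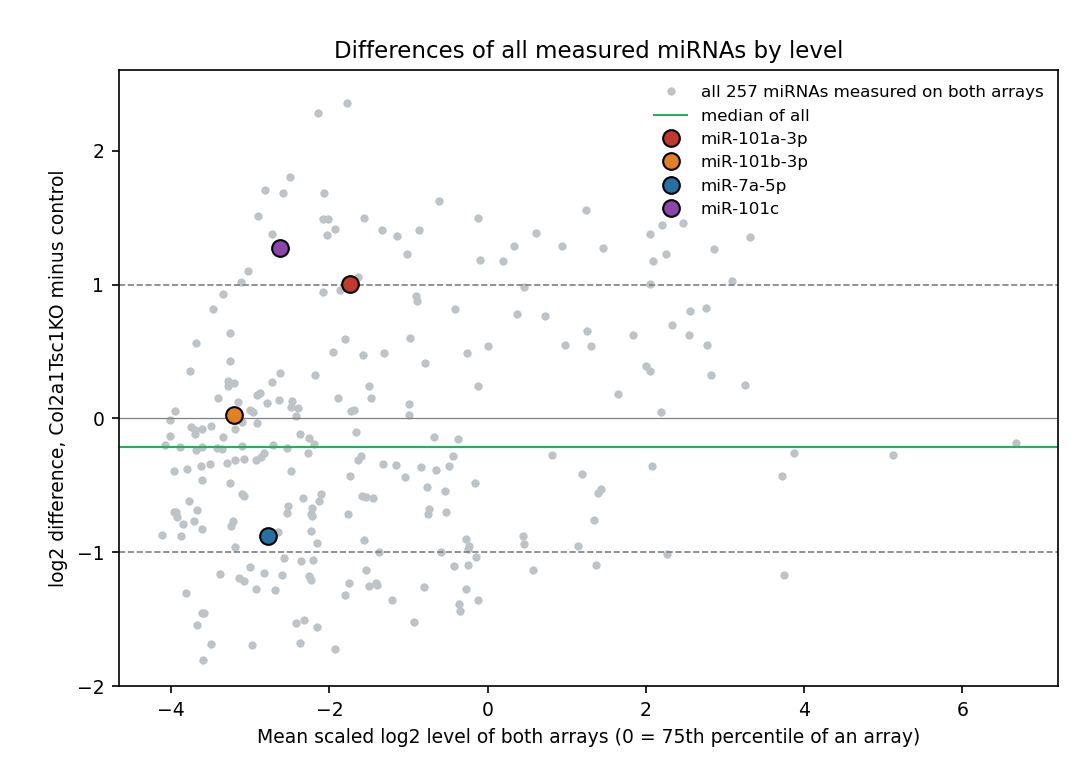
Each grey point is 1 of the 257 miRNAs measured on both arrays, by its mean scaled log2 level (x axis) and its log2 difference, Col2a1Tsc1KO minus control (y axis), with dashed lines at 2-fold and a green line at the median of -0.22. miR-101a-3p sits on the upper dashed line, miR-7a-5p above the lower one, and miR-101b-3p near 0, a position whose sign turned under 4 of the 15 processing alternatives.

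By position on the scaled levels of both arrays, the nearest miRNAs to miR-101a-3p were miR-181b-5p, with a distance of 0.15 and a difference of 1.06 ± 0.02, miR-151-5p at 0.17 with 0.96 ± 0.02, and miR-342-3p at 0.30 with 0.59 ± 0.02. Nearest to miR-101b-3p were miR-374c-5p at 0.07 with -0.01 ± 0.04, miR-3077-5p at 0.07 with -0.08 ± 0.05, and miR-361-5p at 0.10 with 0.12 ± 0.04. Nearest to miR-7a-5p were miR-1971 at 0.18 with -0.85 ± 0.03, miR-130b-3p at 0.21 with -1.16 ± 0.02, and miR-677-3p at 0.31 with -1.28 ± 0.04. Since the neighbours were picked by their levels on these 2 arrays, their like differences follow from the choice, and the level of a probe also depends on its own sequence.

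miR-101 and miR-7 belong to a wider group of miRNAs reported to repress Mtor, Rptor, Rictor, Rheb, S6 kinase or the PI3K and Akt kinases upstream. Of 20 such miRNAs listed, 16 were measured on both arrays. Of these, 14 were higher on the Col2a1Tsc1KO array and 2 lower, where 152 of all 257 measured miRNAs were lower. Across the processing alternatives 12 to 14 of the list were higher (of 15 to 19 with a value). The median of all differences meanwhile ranged from -0.56 with dim probes kept at a floor to 0.30 with the software's totals. How many of all miRNAs were higher under each alternative was not counted. The counts of the list hold miR-101c beside miR-101a-3p, though their signals cannot be told apart. Without miR-101c 13 of 15 were higher, 9 of them by at least 2-fold. Differences of at least 2-fold upward were seen for 10 of the 16, against 15.6% of all measured miRNAs, and downward for 0, against 17.5%. The list was written with earlier results of these data known, so its counts describe it and are not a test. With normexp background correction followed by quantile normalization, 3 of the 16 listed were past 2-fold upward, where 16 of all 257 miRNAs were. The median difference of the list was 1.19 (1.10 without miR-101c), where that of all miRNAs was -0.22. It was 0.70 with normexp and quantile normalization and 0.55 with dim probes kept at a floor.

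The 3 highest of the list were miR-218-5p, reported to repress Rictor, at 1.80 ± 0.04, miR-193b-3p at 1.69 ± 0.03 and miR-144-3p, reported to repress Mtor, at 1.51 ± 0.04. The 3 lowest were miR-7a-5p at -0.87 ± 0.04, miR-128-3p, a miRNA abundant in brain, at -0.48 ± 0.04, and miR-101b-3p at 0.03 ± 0.05. Among the 3 lowest were thus 2 members, and miR-101a-3p ranked among the middle of the list. Without the members and miR-101c, 11 of the remaining 12 measured were higher, 8 by at least 2-fold, and the median was 1.32. miR-7b-5p, miR-153-3p and miR-496a-3p of the list were not measured on either array, and miR-199b-3p was not analysed here.

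**Figure D3:**
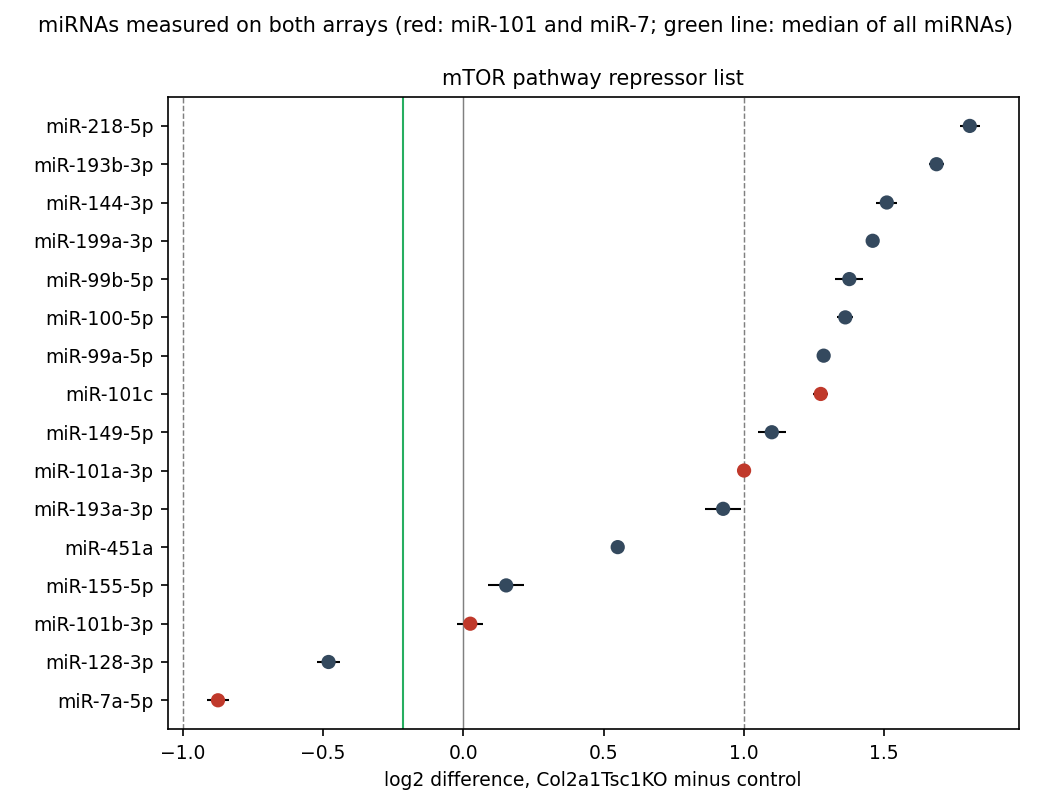
The plot gives the log2 difference, Col2a1Tsc1KO minus control (x axis), of each miRNA measured on both arrays in the list of reported mTOR pathway repressors, with SE over spots, miR-101 and miR-7 in red, dashed lines at 2-fold and a green line at the median of all miRNAs. Of the 16, 14 lie right of 0, where 152 of all 257 measured miRNAs were lower. Without miR-101c, whose signal cannot be told apart from that of miR-101a-3p, 13 of 15 lie right of 0. miR-7a-5p is lowest and miR-101b-3p lies near 0, where its sign turned under 4 of the 15 processing alternatives.

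Markers of the cells in the tissue also differed between the arrays, and their part in the member results was not tested. The cartilage miRNAs, both arms of miR-140 and both of miR-455, were measured on both arrays, with a summed scaled intensity (1 being the 75th percentile) of 12.9 on the Col2a1Tsc1KO array and 5.70 on the control array. Of these, 3 were higher, as miR-101a-3p was, with a median of 1.19 over all 4, and miR-455-5p had -0.03 ± 0.14. The leukocyte miRNAs miR-223-3p, miR-142-3p, miR-142-5p and miR-150-5p were all measured, with sums of 10.9 on the Col2a1Tsc1KO array and 23.6 on the control array, most of it miR-223-3p, and a median of -0.77. The 4 skeletal muscle miRNAs summed to 1.81 on the Col2a1Tsc1KO array and 3.46 on the control array, with a median of -0.97. In each of the leukocyte and skeletal muscle lists 3 of 4 miRNAs were lower, as miR-7a-5p and 152 of all 257 measured miRNAs were. The exceptions were miR-150-5p at 0.64 ± 0.06 and miR-206-3p at 0.05 ± 0.08. In such bulk RNA, fewer cells of a type and less RNA per cell cannot be told apart.

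Of the neural and neuroendocrine miRNAs, markers of the cell types in which miR-7 is best known, most were not detected. The same held for most miRNAs with probes, as 927 of all 1247 were well above background on neither array. Out of 7 listed, miR-124-3p, miR-9-5p, miR-9-3p, miR-129-5p, miR-138-5p and miR-375-3p were well above background on neither array, and miR-128-3p alone was measured, at a scaled intensity of 0.0889 on the Col2a1Tsc1KO array and 0.124 on the control array. Red cell miRNAs summed to 8.52 on the Col2a1Tsc1KO array and 5.74 on the control array over miR-451a and miR-144-3p, with miR-144-5p well above background on the Col2a1Tsc1KO array alone. The endothelial miR-126 arms summed to 4.85 on the Col2a1Tsc1KO array and 3.81 on the control array.

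The table of log2 values deposited by the authors gave the same order of the members. There miR-101a-3p had 7.08 in the Col2a1Tsc1KO sample and 5.95 in the control sample, a difference of 1.14. miR-101b-3p had 4.58 in the Col2a1Tsc1KO sample and 3.97 in the control sample, a difference of 0.61. miR-7a-5p had 4.21 in the Col2a1Tsc1KO sample and 4.90 in the control sample, a difference of -0.69. miR-7b-5p stood at the lowest value of each column, -3.32 in the Col2a1Tsc1KO sample and -3.26 in the control sample, which are also the column medians. The median of all differences in that table was 0, which lies 0.22 above the median of all miRNAs under the scaling used here.

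**Figure D4:**
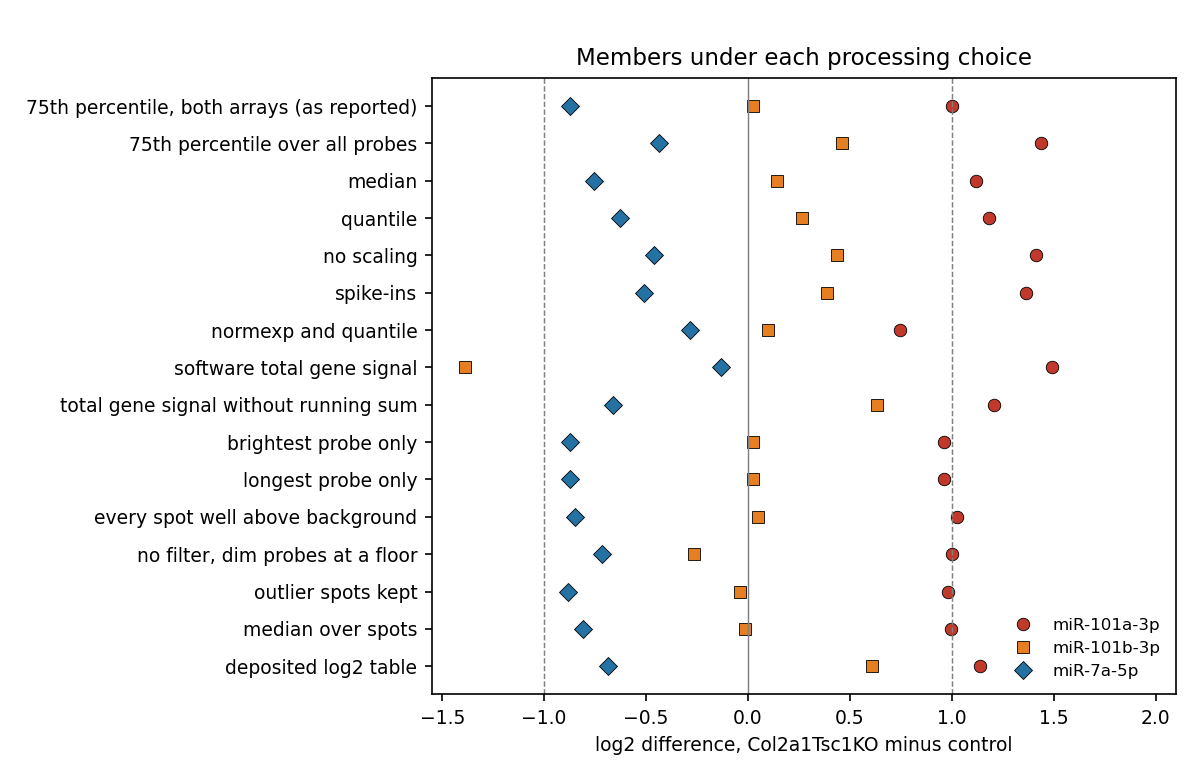
Each row is a way of processing the arrays and each point the log2 difference, Col2a1Tsc1KO minus control, of miR-101a-3p, miR-101b-3p or miR-7a-5p, with dashed lines at 2-fold. miR-101a-3p stays right of 0 and miR-7a-5p left of 0 in every row, whereas miR-101b-3p lies left of 0 under 4 of the 15 alternatives and as far as -1.39 with the software's totals.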

How the data were processed

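The deposited files hold scanner output of Agilent Feature Extraction 10.7, per the file headers and the submitters' notes. Per the file headers, its processed value is an intensity per spot after background subtraction, not scaled across arrays, and it adds a total signal per miRNA. The authors also deposited a table of log2 values. How they made it is not stated in any source used here, and it was compared with the scanner values alone.

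Spots flagged as outliers were dropped and log2 intensities averaged over the spots of each probe. Each array was scaled by the 75th percentile of the 476 probes that both arrays measured well above background, and a miRNA's difference is the mean over its probes of that kind, with SE over spots. Counts use a log2 difference of 1 or more, or -1 or less. With 1 array per group no test was run. Python 3.11.15, numpy 2.4.6, pandas 2.3.3 and limma 3.58.1 (R 4.3.3, normexp with an offset of 50 as an alternative) were used, and the calculation was tested on simulated data.

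The members, the miRNA and marker lists and the alternatives were chosen with earlier results of these data known. The miRNAs named are the members, the other arms of their hairpins, miR-101c, miRNAs with their seeds, the 3 nearest to each measured member by level on both arrays, and the 3 highest and lowest of the list of mTOR pathway repressors. A second list is not reported here. miR-144-3p was also set beside miR-101a-3p for its shared 5′ bases, after its value was seen.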

Additional observations from a re-analysis of the deposited data

How the results depend on the processing

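The results were recomputed under 15 alternatives. The sign of miR-101a-3p (0.75 to 1.49), of miR-7a-5p (-0.88 to -0.13) and of the miR-7 minus miR-101 contrast (-1.58 to -0.19) held in all of them, while miR-101b-3p ranged from -1.39 to 0.63.

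The scaling moved the whole distribution: the median of all differences moved by 0.44 with the 75th percentile of every probe, 0.12 with the median, 0.20 with quantile normalization, 0.41 with no scaling and 0.36 with the spike-ins, the same amount for every miRNA except with quantile normalization. In that order miR-101a-3p was 1.44, 1.12, 1.18, 1.41 and 1.37, miR-101b-3p 0.46, 0.14, 0.27, 0.44 and 0.39, and miR-7a-5p -0.44, -0.76, -0.63, -0.46 and -0.51. The repressor list's median was 1.62, 1.30, 1.22, 1.60 and 1.55. Of the 257 miRNAs, 13, 36, 36, 13 and 14 were at least 2-fold lower and 60, 45, 40, 59 and 55 at least 2-fold higher.

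With normexp background correction and quantile normalization together, miR-101a-3p was 0.75, miR-7a-5p -0.29, the contrast -0.71 and the repressor median 0.70, with 16 miRNAs at least 2-fold higher and 9 lower. With the software's totals, miR-101a-3p was 1.49, miR-101b-3p -1.39, miR-7a-5p -0.13, the contrast -0.19 and the repressor median 1.62, with 80 of 304 miRNAs higher and 24 lower. Across the alternatives 3 to 11 of the repressor list were past 2-fold upward, and 3 downward with the software's totals but 0 otherwise. The software's totals exceeded the sum of a miRNA's own probes, by more than 0.1%, for 92 of 348 detected miRNAs on the Col2a1Tsc1KO array and 81 of 327 on the control array. Removing that excess leaves the sum over the probes detected on each array, which need not be the same probes. With it removed the values were 1.21, 0.63 and -0.66 for the members in the order above, -1.58 for the contrast and 1.49 for the repressor median.

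In the deposited log2 table these were 1.14, 0.61, -0.69, -1.56 and 1.39. With dim probes kept at a floor, miR-101b-3p was -0.27, miR-7a-5p -0.72, the contrast -1.08 and the repressor median 0.55, and miR-7b-5p had only the difference of the floors, -0.56. The repressor median was 1.10 without miR-101c and 1.32 without miR-101c and the miR-101 and miR-7 members, both chosen after seeing the data. Causes were not tested beyond what each alternative's construction shows.

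No paired analysis was possible because each group had 1 array. Signal limits miR-7b-5p, the dim second probes of miR-101b-3p and miR-7a-5p, and the other hairpin arms, for which no level can be given. The number of arrays limits all differences: spot errors do not hold the spread between mice.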
